A study of Homo sapiens with 18 samples.

Results

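The 10 genes described here encode subunits of the Polycomb repressive complexes: EZH1, EZH2, EED and SUZ12 of PRC2, and RING1, RNF2, BMI1, CBX2, CBX7 and CBX8 of PRC1. They were taken by symbol from the count tables of both cell lines, which list 56629 symbols each, and all 10 had a row in both tables and enough counts to be tested. The tables come from a study of ARID2, a DNA-binding subunit of the chromatin remodeller PBAF, a form of SWI/SNF, in 2 human melanoma lines grown in DMEM with serum. SKmel147, from a metastatic melanoma with NRASQ61R, was sequenced as 3 ARID2 KO lines (KO1.4, KO1.5, KO3.20) and as the control lines NT and Par. In SKmel147, the KO lines and NT carried Cas9 from one lentivirus and a guide from a second construct by stable infection, and Par carried no construct. The other cell line, 501mel, from a metastatic melanoma with BRAFV600E, was sequenced as the KO lines KO1.8 and KO5.2 and as the control lines NTC and Par. Its KO lines and NTC carried 1 lentiviral vector with Cas9 and guide, and its Par carried no construct. NT and NTC are called transduced controls here, since the labels do not spell out the abbreviations. Polyadenylated RNA of each line was sequenced in 2 libraries, 18 in all. The sources do not say whether a KO line is a clone or a pool, or whether its libraries are separate cultures, so p-values here measure the spread between libraries, which may be technical.

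PRC2 places methyl groups on lysine 27 of histone H3. EZH2 and its paralogue EZH1 are the alternative catalytic subunits, SUZ12 holds the complex together, and EED binds the finished mark and stimulates the enzyme. PRC1 places ubiquitin on histone H2A through a RING1 or RNF2 ring finger protein joined to a PCGF partner such as BMI1, and in canonical PRC1 a CBX protein reads the PRC2 mark. EZH2 is linked to dividing cells and EZH1 to resting cells, EZH2 is often overactive in melanoma, and Polycomb and SWI/SNF are classical antagonists at developmental genes.

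Library totals ran from 21266522 to 35670140 counts in SKmel147 and from 16749707 to 20606855 counts in 501mel, and the CPM used below are counts scaled to library size with TMM factors of that cell line. ARID2 RNA was at 39.8 to 57.0 CPM in the SKmel147 KO libraries, against 62.3 to 72.8 CPM in the controls, and at 19.8 to 31.9 CPM in the 501mel KO libraries, against 40.9 to 43.2 CPM in the controls. Libraries of 1 line differed beyond counting error (chi-square over its degrees of freedom 13.6 to 35.2 in SKmel147, 2.38 to 4.51 in 501mel), so the same fold change has a wider error in SKmel147. The melanocyte lineage markers (8 genes) summed to 6874 to 9583 CPM in the 501mel KO libraries, against 9211 to 9795 CPM in the controls. In SKmel147 they summed to 170 to 236 CPM in the KO libraries, against 166 to 263 CPM in the controls, and SOX10 made up most of that sum, while PMEL, TYR, DCT and S100B stayed at or under 1.35 CPM in every library. The first SKmel147 Par library held 227 counts of the pigment gene TYRP1, against 3 to 21 in the other SKmel147 libraries, 48 of PMEL, against 1 to 7, and 21 of TYR, against 0 to 2. Without it EZH2 and CBX2 were still called in SKmel147, at −0.36 and −0.61. The 8 markers of other cell types summed to no more than 2.93 CPM in any library.

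RING1 had the highest RNA level per length of the 10 genes in both cell lines, and CBX7 the lowest. The RING1 count was an even number in every library, and the CBX2 count in all but the second SKmel147 Par library. Whether fragments of these genes were counted in duplicate was not tested. Duplicate counting would raise their levels and their ratios to other subunits. On the scale of CPM per kilobase of annotated exon length, RING1 averaged 101 ± 1.36 in the 501mel KO lines and 100.2 ± 2.19 in the 501mel control lines (SD, n = 2 lines each), and 157 ± 16.3 in the SKmel147 KO lines (n = 3) and 148 ± 8.65 in the SKmel147 control lines (n = 2). In the SKmel147 controls, SUZ12 followed at 19.9 ± 2.88 CPM per kilobase, BMI1 at 12.5 ± 0.394 and EZH2 at 10.1 ± 1.05. Then came CBX2 at 5.12 ± 0.167, RNF2 at 4.79 ± 1.58, EED at 4.54 ± 0.941, EZH1 at 3.41 ± 0.188, CBX8 at 2.01 ± 0.050 and CBX7 at 0.231 ± 0.078. The SD of RNF2 spanned CBX2, EED and EZH1, so its place in that order was not resolved. In the 501mel controls, SUZ12 at 17.7 ± 1.98 and EZH2 at 15.99 ± 0.535 CPM per kilobase also lay within 1 SD, and CBX2 followed at 11.8 ± 1.49, RNF2 at 9.65 ± 0.608 and BMI1 at 7.05 ± 0.098. EED was at 4.50 ± 0.381, EZH1 at 2.83 ± 0.397, CBX8 at 1.99 ± 0.077 and CBX7 at 0.958 ± 0.075 CPM per kilobase there.

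**Figure D1:**
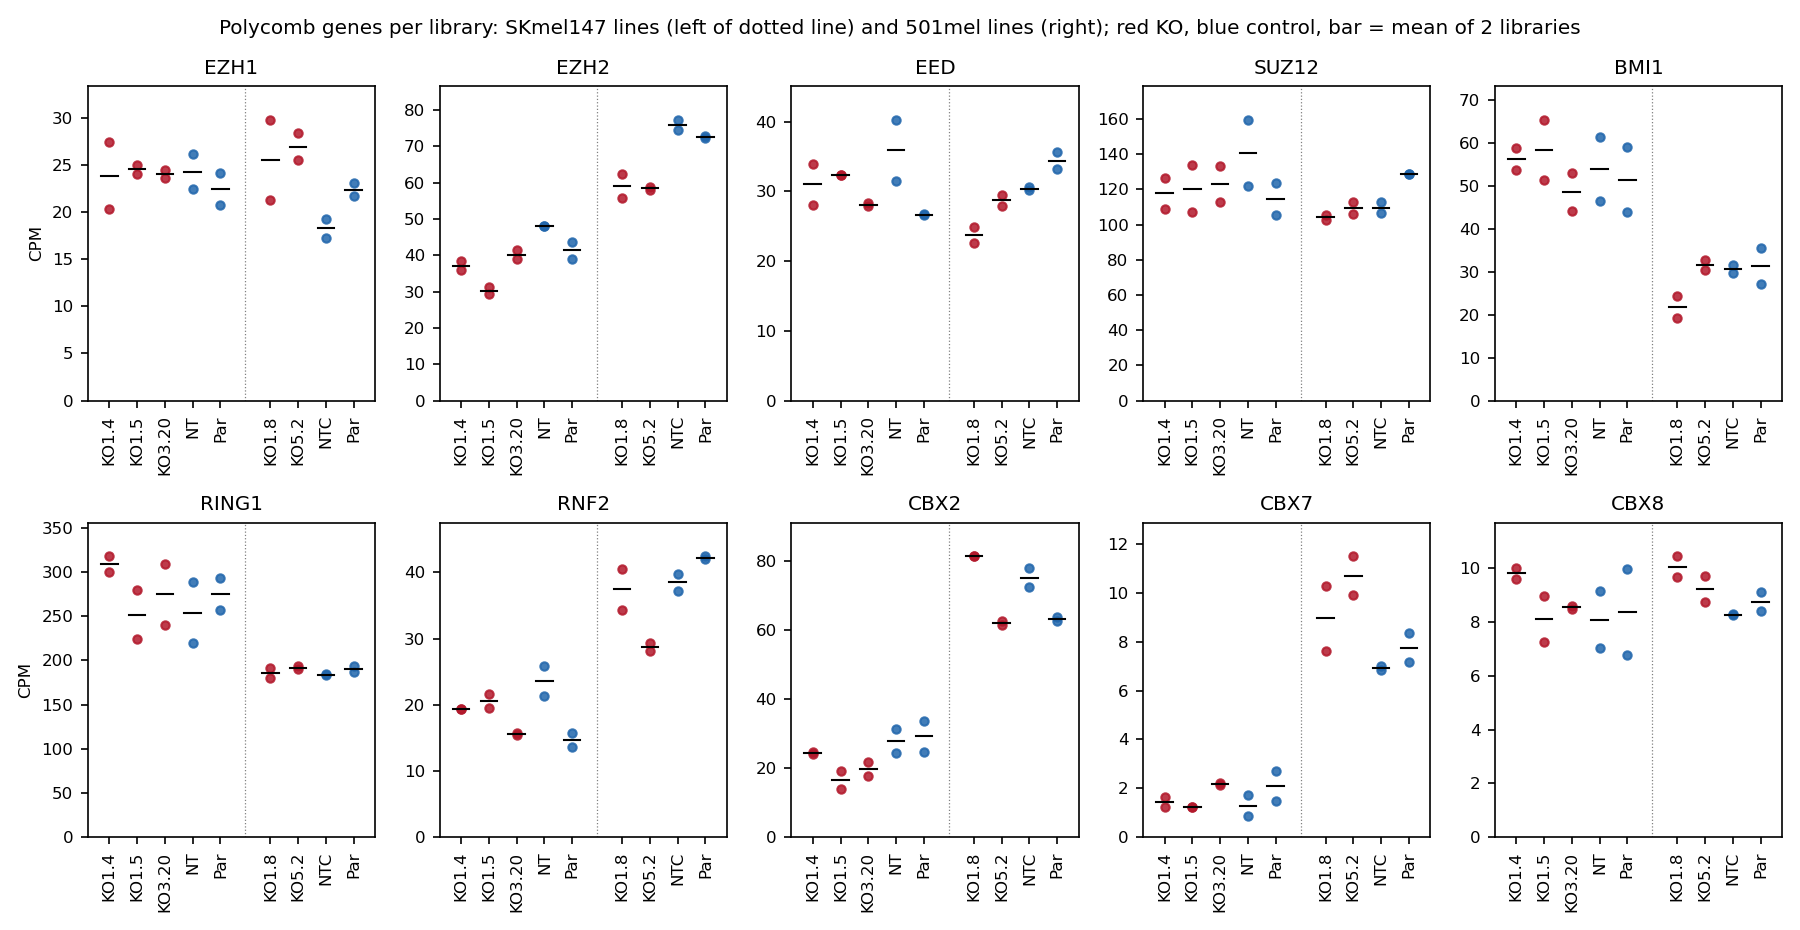
Level of each of the 10 genes in CPM (vertical axis, from 0) in every library, with SKmel147 lines left and 501mel lines right of the dotted line, KO lines in red and control lines in blue, and a bar at the mean of the 2 libraries of a line. EZH2 and EED in 501mel are the panels in which all KO libraries lie below all control libraries, at 55.9 to 62.4 against 72.3 to 77.4 CPM for EZH2.

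Between the cell lines, 7 of the 10 genes differed in the control libraries, where 80.7% of all tested genes did, 37.6% higher and 43.1% lower in 501mel (edgeR quasi-likelihood test, Benjamini-Hochberg adjusted p under 0.05, the rule for every call below). Higher in 501mel controls than in SKmel147 controls were CBX7, by 2.11 ± 0.20 on the log2 scale (SE), CBX2, by 1.21 ± 0.11, RNF2, by 1.05 ± 0.09, and EZH2, by 0.67 ± 0.06. Lower in 501mel controls were BMI1 at −0.83 ± 0.13, RING1 at −0.56 ± 0.09 and EZH1 at −0.27 ± 0.11. The adjusted p of these genes ran from 4.39e-09 for RNF2 to 0.0334 for EZH1 (edgeR quasi-likelihood test). EED, CBX8 and SUZ12 did not pass, with differences of −0.00, −0.01 and −0.16 and 95% intervals of −0.18 to 0.18, −0.28 to 0.26 and −0.36 to 0.04. EED and SUZ12 were called with opposite signs under other settings, higher in 501mel after correction for GC content and length (0.61 and 0.41) and lower against the transduced controls alone (−0.30 and −0.42). EED was also called higher against Par alone (0.30), and SUZ12 lower without the second SKmel147 NT library (−0.21). The EZH1 call was lost against Par alone (−0.08) and after correction for GC content and length (−0.01). It was also lost without any 1 of 9 libraries, namely both of KO5.2 and the first of NTC and of Par in 501mel, and the second of KO1.5 and of NT, both of KO3.20 and the first of Par in SKmel147, at −0.18 to −0.26. The cell lines stand in separate tables, so a difference between them cannot be told apart from one between the tables' batches.

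In SKmel147 the ARID2 KO lines had less EZH2 and CBX2 RNA than the controls, and the other 8 genes did not pass the test. The 2 calls among 10 genes compare with 17.7% of all genes called in that comparison, 8.07% higher and 9.6% lower, a share near the background. In 501mel, 7 of 10 genes were called, 5 lower in the KO lines (EZH2, EED, RNF2, BMI1 and SUZ12) and 2 higher (EZH1 and CBX7), where 51.3% of all genes were called, 24.7% higher and 26.5% lower. The KO1.8 line had 6 calls among the 10 genes, where 40.2% of all genes were called, KO5.2 had 6 (2 without its first library, 4 with DESeq2), where 53.5% were, and NTC differed from Par in 2, where 15.7% did. Between KO5.2 and KO1.8, 4 of the 10 were called, where 41.3% of all genes were. The KO and control libraries did not overlap for 2 of the 10 genes in 501mel (27.1% of all genes) and for 0 of the 10 in SKmel147 (8.58%). The median log2 fold change of the 10 genes was −0.02 in SKmel147 and −0.07 in 501mel, beside −0.01 over all tested genes in each. EZH2 was lower in the KO lines of both cell lines, a pattern of equal sign in both that 7.32% of the genes tested in both had. No gene was called in opposite directions, which 3.86% of genes were. EZH2, EED and EZH1 were called with 1 sign in both 501mel KO lines, as were 24% of all genes there, and none of the 10 was called in all 3 SKmel147 KO lines, as were 3.39%.

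These tests take the libraries of 1 line as replicates, and lines also differ where ARID2 was not targeted, as NT and Par do. With the counts of each line summed and the line as the replicate, 0 of the 10 genes were called in either cell line, and the called genes had adjusted p of 0.345 and 0.465 in SKmel147 and of 0.317 to 0.663 in 501mel (edgeR quasi-likelihood test). At an unadjusted p under 0.05, 1 of the 10 passed in each cell line. With limma voom and the line as a block, 0 were called in either, with 2 at an unadjusted p under 0.05 in each. Among single SKmel147 lines, edgeR called 2 of the 10 in KO1.5, where 11.2% of all genes were called, and 0 in KO1.4, where 8.77% of genes were called, and 0 in KO3.20, where 12.6% were. At an unadjusted p under 0.05, EZH2 passed in KO1.4 and CBX2 in KO3.20, and DESeq2 called 0 genes in KO1.4 and 1 in KO3.20.

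**Figure D2:**
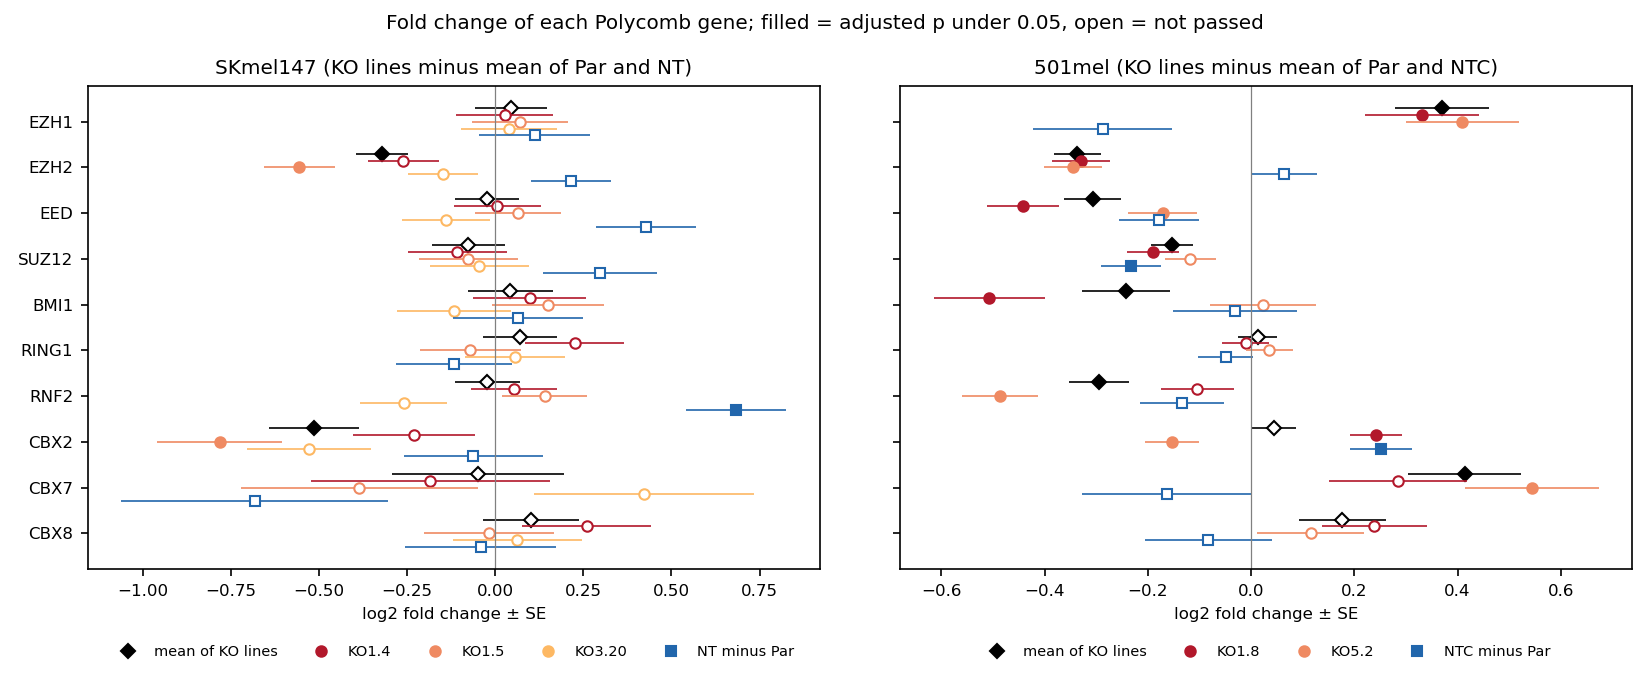
Log2 fold change with its SE (horizontal axis) of each of the 10 genes (rows), for the mean of the KO lines (diamonds), each KO line (circles) and the transduced control against Par (squares), in SKmel147 on the left and 501mel on the right, with filled symbols past an adjusted p of 0.05. In 501mel the EZH2 points of both KO lines lie together at −0.33 and −0.35, while the BMI1 points lie apart at −0.51 and 0.02.

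EZH2, the main catalytic subunit of PRC2, was lower in the KO lines of 501mel and of SKmel147. In 501mel it was at 62.4 and 55.9 CPM in the KO1.8 pair and 58.0 and 58.9 CPM in the KO5.2 pair, against 77.4 and 74.5 CPM in NTC and 73.0 and 72.3 CPM in Par. All 4 KO libraries lay below all 4 control libraries. The KO lines differed from the controls by −0.34 ± 0.05 (edgeR quasi-likelihood test, adjusted p = 2.44e-05), and NTC differed from Par by 0.06 ± 0.06. In SKmel147 EZH2 was at 35.9 and 38.4 CPM in KO1.4, at 31.1 and 29.4 CPM in KO1.5 and at 39.0 and 41.4 CPM in KO3.20, against 48.0 and 48.0 CPM in NT and 39.0 and 43.7 CPM in Par. KO1.5 lay lowest, and the KO3.20 libraries overlapped those of Par. The log2 fold change over the 3 lines was −0.32 ± 0.07 (edgeR, adjusted p = 0.0104), and of the single lines KO1.5 was called at −0.56 ± 0.10. KO1.4 and KO3.20 were at −0.26 ± 0.10 and −0.15 ± 0.10 and did not pass. The SKmel147 call was lost without KO1.5 (−0.20, adjusted p = 0.149) and against Par alone (−0.21, adjusted p = 0.128; edgeR). The difference of the KO effect between 501mel and SKmel147 was −0.03, with a 95% interval of −0.21 to 0.16.

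The promoters of EZH2, EZH1 and SUZ12 are shown because, of the 8 genes with a RefSeq promoter entry (none was found for CBX2 and CBX8), these 3 held an E2F motif. E2F factors drive genes of S phase, and EZH2 is a known E2F target in human cells. Each sequence runs from 250 bases before to 50 bases after the annotated start in GRCh38.p14, 5′ to 3′ on the gene's strand, with the motif in capitals. The motif letters searched were TTTGGCGC, TTTCCCGC, TTTGCCGC and TTTCGCGC on both strands, and 3.305% of 34796 distinct promoters held one.
EZH2, chr7:148884242-148884541, minus strand: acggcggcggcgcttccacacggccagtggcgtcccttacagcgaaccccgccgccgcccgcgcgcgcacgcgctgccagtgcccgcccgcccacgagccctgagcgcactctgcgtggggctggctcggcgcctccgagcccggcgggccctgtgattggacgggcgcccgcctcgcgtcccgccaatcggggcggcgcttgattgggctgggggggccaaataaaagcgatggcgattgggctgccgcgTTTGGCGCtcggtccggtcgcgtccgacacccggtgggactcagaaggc
EZH1, chr17:42744991-42745290, minus strand: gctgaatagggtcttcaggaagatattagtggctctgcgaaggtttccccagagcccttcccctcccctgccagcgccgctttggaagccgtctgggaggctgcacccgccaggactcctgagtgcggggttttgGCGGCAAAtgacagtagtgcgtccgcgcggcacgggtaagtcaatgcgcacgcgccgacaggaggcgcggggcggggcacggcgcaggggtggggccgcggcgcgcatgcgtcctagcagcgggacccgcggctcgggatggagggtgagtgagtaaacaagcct
SUZ12, chr17:31936757-31937056, plus strand: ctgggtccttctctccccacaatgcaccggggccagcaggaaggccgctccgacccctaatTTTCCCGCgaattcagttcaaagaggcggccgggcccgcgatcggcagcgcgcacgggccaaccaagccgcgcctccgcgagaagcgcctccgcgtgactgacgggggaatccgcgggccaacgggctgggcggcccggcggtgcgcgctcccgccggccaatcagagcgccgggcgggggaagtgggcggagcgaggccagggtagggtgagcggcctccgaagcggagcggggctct
The match starts at position 2 of EZH2, with the start base counted as 1, 115 bases before the EZH1 start and 189 bases before the SUZ12 start. A second promoter entry of EZH2 held no E2F match. Of 6 other motifs searched on both strands, GGGCGG (SP1) was in promoters of 7 of the 8 genes and in 44.89% of all. CCAAT was in 4 of 8 and in 34.62% of all. For EZH2 and BMI1, which had a second entry, a match in either counted, while the shares are per promoter. The entries of these genes other than EED had a GC content of 67% to 91%, against a median of 58.7% over all promoters. CACGTG (E-box, 7.205% of all) was in a promoter of BMI1, and TGACTCA (AP-1), TGACGTCA (CRE) and the NRF1 motif were in none of the 8. In the mean of the 501mel KO lines, EZH2 and SUZ12 RNA was lower and EZH1 RNA higher. The SUZ12 call was lost against NTC alone and the EZH1 call against Par alone. A part of E2F factors in these values was not tested. E2F1 RNA itself was at 35.1 to 41.6 CPM in the 501mel KO libraries, against 25.9 to 29.1 CPM in the controls, a log2 fold change of 0.52 ± 0.06. In SKmel147, E2F1 was at 38.1 to 50.5 CPM in the KO libraries, against 44.7 to 70.5 CPM in the controls, and did not pass. A match of letters is a description of the sequence, and binding was not measured.

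EZH1, the paralogous catalytic subunit, was higher in the 501mel KO lines. It was at 29.8 and 21.3 CPM in the KO1.8 pair and 28.4 and 25.5 CPM in the KO5.2 pair, against 17.3 and 19.3 CPM in NTC and 21.7 and 23.1 CPM in Par. The second KO1.8 library lay below both Par libraries, so the groups overlapped. The log2 fold change was 0.37 ± 0.09 (edgeR, adjusted p = 0.00353), with 0.33 ± 0.11 in KO1.8 and 0.41 ± 0.11 in KO5.2. NTC differed from Par by −0.29 ± 0.13, which did not pass, and against Par alone the KO value was 0.23 and the call was lost (edgeR, adjusted p = 0.127). In SKmel147 EZH1 was at 20.3 to 27.4 CPM in the KO libraries, with a median of 24.3 CPM, against 22.5 and 26.2 CPM in NT and 24.1 and 20.8 CPM in Par. The log2 fold change there was 0.05, with a 95% interval of −0.18 to 0.27.

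The ratio of EZH2 to EZH1 per length was lower in the 501mel KO lines than in its controls. It was 3.58 in KO1.8 and 3.35 in KO5.2, against 6.41 in NTC and 5.01 in Par. In SKmel147 it was 2.41 for KO1.4, 1.91 for KO1.5 and 2.58 for KO3.20, against 3.05 in NT and 2.85 in Par. The KO lines thus lay below the control lines in both cell lines, in 501mel through both genes. In SKmel147 EZH2 was lower in the mean of the KO lines, but KO3.20 and Par were close, at 40.2 and 41.4 CPM. EZH1 was at 24.0 CPM in KO3.20 and 22.5 CPM in Par, so that pair did not differ through EZH2 alone. The ratio has no test here, since it combines 2 genes whose values were tested one by one.

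**Figure D3:**
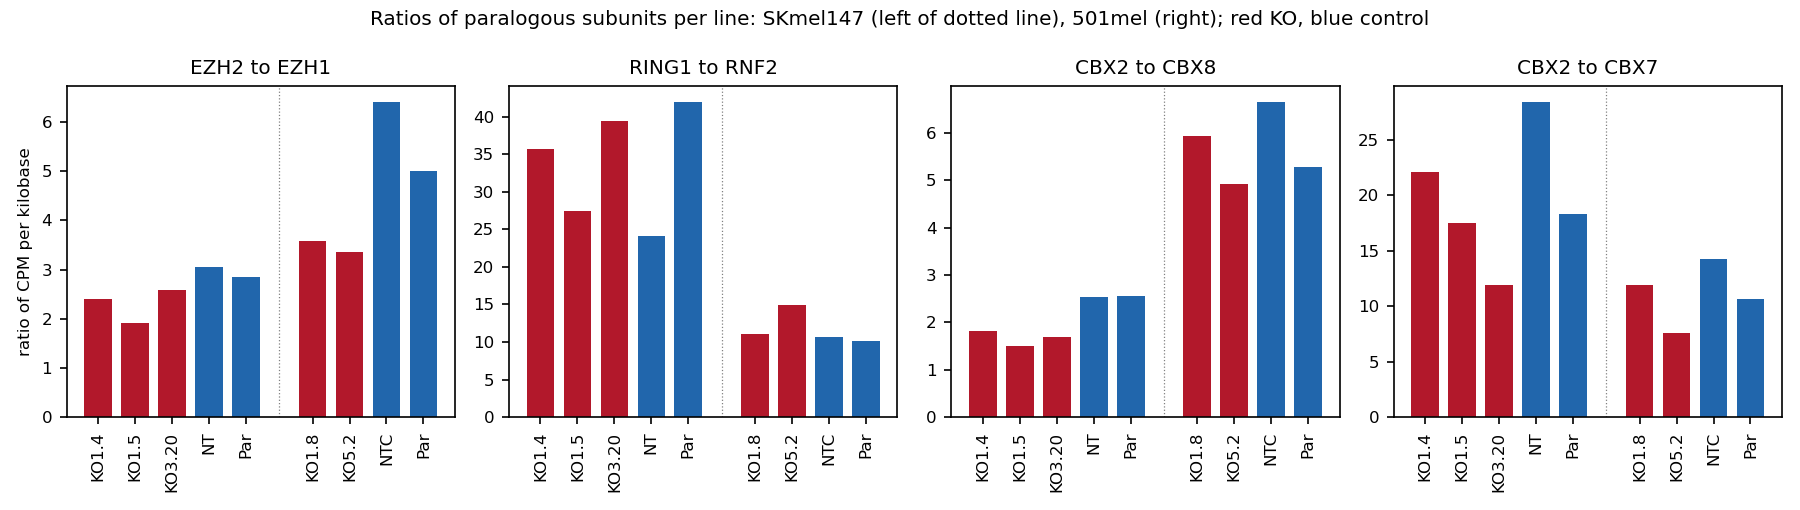
Ratio of CPM per kilobase (vertical axis, from 0) of paralogous subunits in each line, mean of 2 libraries, with SKmel147 left and 501mel right of the dotted line, KO lines in red and control lines in blue. The ratio of EZH2 to EZH1 is 3.58 and 3.35 in the 501mel KO lines, against 6.41 and 5.01 in the controls, and that of CBX2 to CBX8 is 1.499 to 1.81 in the SKmel147 KO lines, against 2.53 and 2.56 in the controls.

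EED and SUZ12, the non-catalytic core of PRC2, were lower in the 501mel KO lines. EED was at 22.6 and 24.9 CPM in the KO1.8 pair and 27.9 and 29.5 CPM in the KO5.2 pair, against 30.6 and 30.3 CPM in NTC and 33.2 and 35.6 CPM in Par. All KO libraries lay below all control libraries, with KO1.8 the lowest. The mean KO effect on the log2 scale was −0.31 ± 0.06 (edgeR, adjusted p = 0.000326), with −0.44 ± 0.07 in KO1.8 and −0.17 ± 0.07 in KO5.2, and EED was higher in KO5.2 than in KO1.8 by 0.27 ± 0.08. SUZ12 was at 103 and 106 CPM in the KO1.8 pair and 106 and 113 CPM in the KO5.2 pair, against 106 and 113 CPM in NTC and 129 and 129 CPM in Par. The KO libraries thus overlapped NTC and lay below Par. The log2 fold change of SUZ12 was −0.15 ± 0.04 (edgeR, adjusted p = 0.00557), and NTC was lower than Par by a value of similar size, −0.23 ± 0.06, which was also called. Against NTC alone SUZ12 differed by −0.04 (edgeR, adjusted p = 0.561). Without KO1.8 the SUZ12 value was −0.12 (adjusted p = 0.0578).

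In SKmel147 the KO values of EED and SUZ12 lay within the spread of the controls. EED was at 27.9 to 34.0 CPM in the KO libraries, against 40.3 and 31.5 CPM in NT and 26.6 and 26.8 CPM in Par. SUZ12 was at 107 to 134 CPM in the KO libraries, against 160 and 122 CPM in NT and 124 and 105 CPM in Par. The first NT library was the highest for both genes. The log2 fold changes were −0.02 for EED, with a 95% interval of −0.22 to 0.18, and −0.08 for SUZ12, with −0.30 to 0.15. SUZ12 has a pseudogene with a row of its own, SUZ12P, with 350 to 705 counts per library, and reads that fit both may have been split or dropped.

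Of the PRC1 ring finger proteins, RNF2 was lower in the 501mel KO lines and RING1 was not called in any KO comparison. RNF2 was at 34.3 and 40.6 CPM in the KO1.8 pair and 29.3 and 28.2 CPM in the KO5.2 pair, against 39.8 and 37.2 CPM in NTC and 42.0 and 42.5 CPM in Par. Both KO5.2 libraries lay below every other 501mel library, and KO1.8 overlapped NTC. The log2 fold change was −0.30 ± 0.06 (edgeR, adjusted p = 0.000653), with −0.49 ± 0.07 in KO5.2 and −0.10 ± 0.07 in KO1.8, and RNF2 was lower in KO5.2 than in KO1.8, at −0.38 ± 0.08. Without KO5.2 the call was lost (−0.10, adjusted p = 0.289). In SKmel147 RNF2 was at 15.4 to 21.6 CPM in the KO libraries, against 25.9 and 21.4 CPM in NT and 15.8 and 13.6 CPM in Par. NT and Par stood at opposite ends of the KO range, and NT was higher than Par by 0.68 ± 0.14 (edgeR, adjusted p = 0.0135), the one member called between these controls, where 9.27% of genes were called. Across genes this difference between NT and Par followed GC content with a Spearman rho of −0.405, and RNF2 transcripts have a GC content of 38.1%. With GC content and length corrected, 1 of the 10 genes was called between NT and Par, a count that does not say which gene. Without the first NT or the second Par library 0 were called (edgeR), while without the second NT library 2 were. The KO mean of RNF2 in SKmel147 differed from the mean of both controls by −0.02, with a 95% interval of −0.22 to 0.18.

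RING1, the second ring finger protein, was at 191 and 180.5 CPM in the KO1.8 pair and 194 and 189.8 CPM in the KO5.2 pair, against 185 and 183 CPM in NTC and 187 and 194 CPM in Par. The groups overlapped, and the log2 fold change of 0.01 had a 95% interval of −0.07 to 0.09. In SKmel147 RING1 was at 224 to 318 CPM in the KO libraries and at 219 to 294 CPM in the controls, a log2 fold change of 0.07 with an interval of −0.16 to 0.30. The ratio of RING1 to RNF2 per length was 11.1 in KO1.8 and 14.9 in KO5.2, against 10.7 in NTC and 10.1 in Par. In SKmel147 it was 35.8, 27.5 and 39.5 in KO1.4, KO1.5 and KO3.20, against 24.1 in NT and 42.0 in Par, so the control lines enclosed the KO lines.

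BMI1, the PCGF partner of the ring finger proteins that represses the CDKN2A locus, was lower in 1 of the 501mel KO lines. It was at 19.3 and 24.3 CPM in the KO1.8 pair and 30.4 and 32.7 CPM in the KO5.2 pair, against 29.8 and 31.5 CPM in NTC and 27.1 and 35.7 CPM in Par. KO1.8 lay below all other 501mel libraries, and KO5.2 lay among the controls. On the log2 scale the KO effect was −0.51 ± 0.11 in KO1.8 (edgeR, adjusted p = 0.00169) and 0.02 ± 0.10 in KO5.2, and the lines differed by 0.53 ± 0.12 as KO5.2 minus KO1.8. The mean of both, −0.24 ± 0.09, was called (edgeR, adjusted p = 0.0285), and it was lost without any 1 of 5 libraries, namely the first of KO1.8, KO5.2 or NTC or the second of NTC or Par, with values of −0.13 to −0.26. It was also lost against Par alone (−0.26) and against NTC alone (−0.23). In SKmel147 BMI1 was at 44.1 to 65.5 CPM in the KO libraries and at 43.8 to 61.3 CPM in the controls, a log2 fold change of 0.04 with a 95% interval of −0.22 to 0.30. BMI1 shares 1000 bases of exon with the readthrough gene COMMD3-BMI1, which had 0 counts in every library, and how reads in the shared bases were assigned is not given in the sources used here.

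CBX2, a canonical PRC1 reader that also compacts chromatin, was lower in the SKmel147 KO lines. It was at 24.0 and 24.6 CPM in KO1.4, at 14.0 and 19.2 CPM in KO1.5 and at 21.9 and 17.7 CPM in KO3.20, against 24.5 and 31.3 CPM in NT and 24.8 and 33.7 CPM in Par. KO1.5 and KO3.20 lay below all control libraries, and the second KO1.4 library lay just above the lowest NT library. The log2 fold change was −0.51 ± 0.13 (edgeR, adjusted p = 0.0162), made up of −0.23 ± 0.17 for KO1.4, −0.78 ± 0.18 for KO1.5 and −0.53 ± 0.18 for KO3.20, of which KO1.5 was called. NT differed from Par by −0.06 ± 0.20. The call was lost against NT alone (−0.48, adjusted p = 0.075), without KO1.5 (−0.37, adjusted p = 0.0825) and without the second library of KO3.20, NT or Par (−0.39 to −0.46, edgeR).

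In 501mel the CBX2 values of the KO lines went opposite ways. CBX2 was at 81.5 and 81.4 CPM in the KO1.8 pair and 62.5 and 61.4 CPM in the KO5.2 pair, against 78.0 and 72.5 CPM in NTC and 63.7 and 62.6 CPM in Par. KO1.8 stood above all controls and KO5.2 below all of them. KO1.8 was higher than the controls by 0.24 ± 0.05 (edgeR, adjusted p = 0.0015), KO5.2 was lower, at −0.15 ± 0.05 (adjusted p = 0.023), and NTC was higher than Par by 0.25 ± 0.06 (adjusted p = 0.0107). The mean of the KO lines differed from the controls by 0.04 ± 0.04 and was not called. The KO effect on CBX2 differed between the cell lines, by 0.55 ± 0.15 as 501mel minus SKmel147 (edgeR, adjusted p = 0.0141), the one member called in a comparison that called 21.3% of all genes. That difference was lost against the transduced controls alone (0.39, adjusted p = 0.170) and without KO1.8 (0.35, adjusted p = 0.188). For EED and RNF2 the KO effects differed by −0.29 ± 0.12 and −0.28 ± 0.11 (edgeR, adjusted p = 0.0900 and 0.0953), and these passed against Par alone, at −0.59 and −0.69, and without the first SKmel147 NT library, at −0.38 and −0.35. EED also passed without the first KO1.4 library (−0.34), and RNF2 without the first SKmel147 Par library (−0.34), without KO1.8 (−0.48), without KO3.20 (−0.40) and after correction for GC content and length (−0.23). The difference of EZH1, 0.32 ± 0.15 (edgeR, adjusted p = 0.154), passed after that correction, at 0.36.

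CBX7, the reader best known from embryonic stem cells, was higher in the 501mel KO lines and at a low level in SKmel147. In 501mel it was at 10.3 and 7.64 CPM in the KO1.8 pair and 11.5 and 9.90 CPM in the KO5.2 pair, against 6.84 and 7.01 CPM in NTC and 8.37 and 7.16 CPM in Par. KO5.2 lay above all controls, and the second KO1.8 library lay among the Par libraries. The KO lines differed from the controls by 0.41 ± 0.11 (edgeR, adjusted p = 0.00562), with 0.28 ± 0.13 in KO1.8, not called, and 0.54 ± 0.13 in KO5.2, called. The call was lost against Par alone (0.33, adjusted p = 0.0668) and without KO5.2 (0.29, adjusted p = 0.118). In SKmel147 CBX7 was at 1.24 to 2.23 CPM in the KO libraries and at 0.85 to 2.71 CPM in the controls, and its log2 fold change of −0.05 had a 95% interval of −0.58 to 0.49. CBX8, a reader encoded beside CBX2 on chromosome 17, was not called between KO lines and controls. It was at 10.46 and 9.67 CPM in the KO1.8 pair and 9.72 and 8.75 CPM in the KO5.2 pair, against 8.27 and 8.29 CPM in NTC and 8.43 and 9.11 CPM in Par, a log2 fold change of 0.18 with an interval of −0.00 to 0.36. After correction for GC content and length it was called in 501mel, at 0.19 (edgeR, adjusted p = 0.0485). In SKmel147 CBX8 was at 7.25 to 10.0 CPM in the KO libraries and at 6.76 to 9.98 CPM in the controls, at 0.10 with an interval of −0.20 to 0.40.

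The ratio of CBX2 to CBX8 per length was 1.81 for KO1.4, 1.499 for KO1.5 and 1.69 for KO3.20, against 2.53 in NT and 2.56 in Par. In 501mel it was 5.93 in KO1.8 and 4.92 in KO5.2, against 6.66 in NTC and 5.27 in Par, so only the SKmel147 lines were separated by genotype in this ratio.

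Some of the 10 genes had values like those of the genes around them. For each gene, the median log2 fold change of the 25 tested genes on either side of it on the chromosome was set beside its own. In 501mel KO1.8, BMI1 was at −0.51 and its 50 neighbours on chromosome 10 had a median of −0.51, and in KO5.2 the values were 0.02 and −0.06. EED was at −0.44 in KO1.8 beside a median of −0.23 on chromosome 11, and at −0.17 in KO5.2 beside 0.02. EZH2 was at −0.33 and −0.35 in KO1.8 and KO5.2 beside medians of −0.14 and −0.26 on chromosome 7. RNF2 in KO5.2 (−0.49 beside −0.08), EZH1 (0.33 and 0.41 beside −0.00 and −0.07) and CBX7 (0.28 and 0.54 beside 0.02 and −0.06) stood apart from their neighbours. RING1 was the reverse case, at 0.04 in KO5.2 within a stretch of chromosome 6 with a median of 0.36. In SKmel147 KO1.5, EZH2 at −0.56 and CBX2 at −0.78 stood beside medians of −0.12 and 0.00. DNA copy number was not measured, so a changed copy of a chromosome region and a changed RNA output cannot be told apart.

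**Figure D4:**
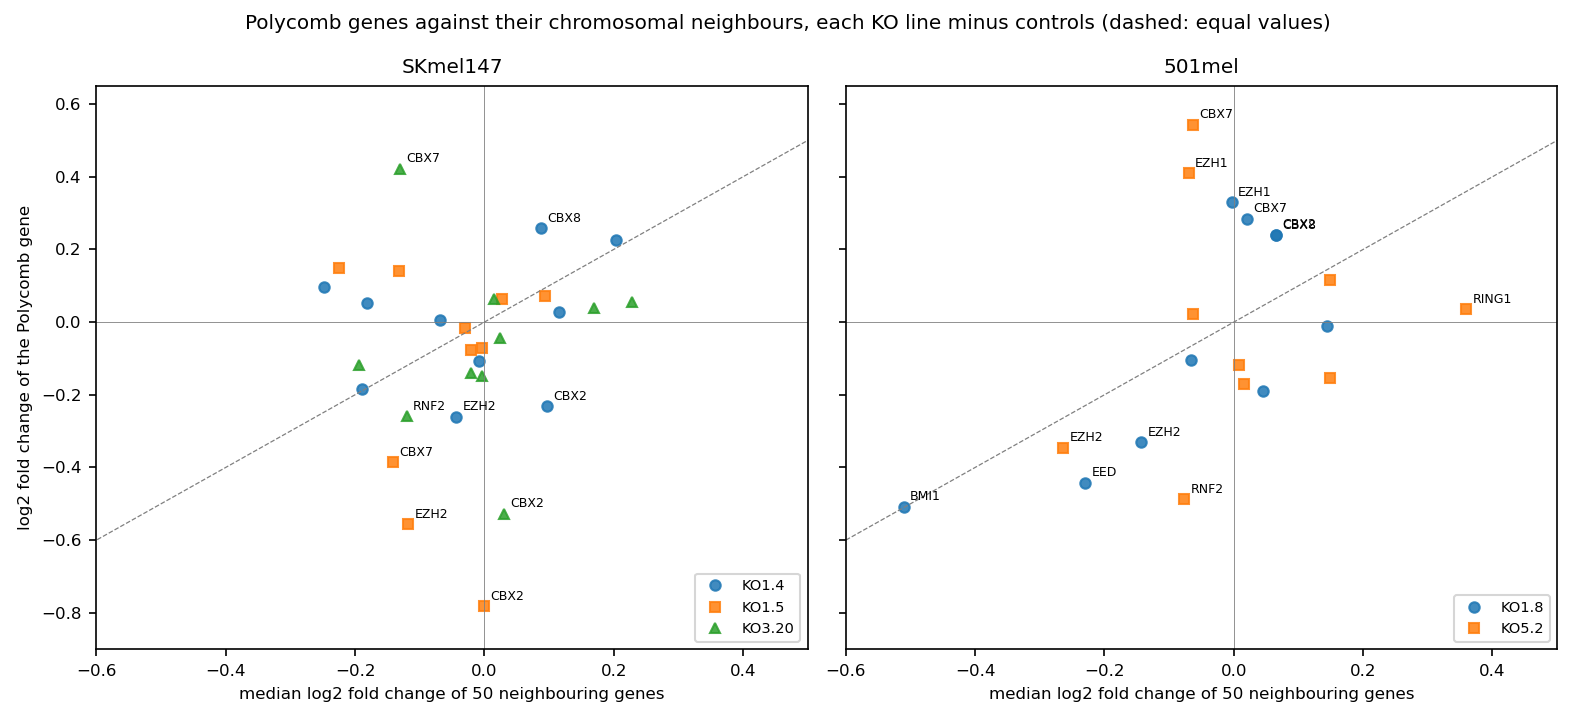
Log2 fold change of each Polycomb gene (vertical axis) against the median log2 fold change of its 50 neighbouring genes (horizontal axis), one point per gene and KO line, in SKmel147 on the left and 501mel on the right, with equal values on the dashed line. BMI1 in KO1.8 lies on the dashed line at −0.51, while CBX7 and EZH1 in 501mel lie above it.

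Across the 9 lines, with log2 CPM centred within each cell line, EED varied most closely with SUZ12 (r = 0.83) and with BMI1 (r = 0.75), and RNF2 ran against CBX7 (r = −0.92). RING1 and CBX8 also varied together (r = 0.73), and EZH1 ran against EZH2 (r = −0.60). These r are descriptions over 9 points that share libraries and base composition. For CBX7, the 5 SKmel147 lines among them rest on low levels, 0.85 to 2.71 CPM per library. EED, SUZ12, BMI1 and RNF2 have a transcript GC content of 33.0% to 39.1%, EZH2 of 42.7% and EZH1 of 50.5%. RING1, CBX2, CBX7 and CBX8 have 57.5% to 61.6%. The named pairs with positive r lie within 1 class of GC content, and the pair RNF2 and CBX7 spans both. RNF2 also varied with EED (r = 0.68) and SUZ12 (r = 0.63), and EED ran against CBX7 (r = −0.71). EZH2 varied with CBX2 (r = 0.58), a pair of unlike GC content. A part of base composition in these r was not tested. Among 8882 genes, those most like EZH2 over the lines were CTCF (r = 0.96), the insulator protein, WDR90 (0.95) and RP11-1212A22.4 (0.95). Those most like RNF2 were BCAS2 (0.97), LSM6 (0.96) and RBBP8 (0.96).

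The accessory subunits of PRC2 went in both directions in 501mel and mostly did not pass in SKmel147. In 501mel, 3 of 10 tested accessory genes were higher and 4 lower in the KO lines, where 51.3% of all genes were called. With voom 0 of 10 were called, with 3 at an unadjusted p under 0.05. With the line as the replicate, 0 genes were called in this list and in each list below, in either cell line, with 0 to 3 per list at an unadjusted p under 0.05 in SKmel147 and 0 to 4 in 501mel (edgeR). PHF1, a Polycomb-like protein that binds CG-rich DNA, was at 24.4 to 45.2 CPM in the KO libraries, against 21.5 to 25.02 CPM in the controls. It rose by 0.50 ± 0.06 on the log2 scale. That rise lay mostly in KO5.2, which was 0.90 above the controls and 0.80 above KO1.8. Neighbouring genes were set beside the 10 Polycomb genes alone, so whether PHF1 moved with its chromosome region was not tested. The histone-binding RBBP7 rose by 0.33 ± 0.04, and AEBP2, a cofactor of the JARID2 form of PRC2, fell by 0.35 on the log2 scale to 41.3 to 49.2 CPM, against 55.0 to 67.0 CPM in the controls. In SKmel147 RBBP4, the paralogue of RBBP7, rose by 0.27 ± 0.07 as the 1 of 10 called, a call lost with voom, against NT alone and without either KO1.4 library, the first of KO1.5 or the second of KO3.20 or NT, and MTF2 and AEBP2 were at −0.25 and 0.19 and did not pass. The median over the list was −0.04 in SKmel147 and −0.05 in 501mel, close to those of all genes.

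Of the other canonical PRC1 genes, 3 were higher and 3 lower of 10 tested in 501mel, where voom called 1, and 0 of 9 were called in SKmel147 (edgeR), where 1 passed at an unadjusted p under 0.05 and DESeq2 called 0. In SKmel147 PHC1 and SCMH1 were at 0.24 ± 0.09 and 0.14 ± 0.07. SCML4, a sex-comb-on-midleg-like protein, was at 10.7 to 15.5 CPM in the 501mel KO libraries, against 0.294 to 2.48 CPM in the controls, a log2 fold change of 3.83 ± 0.13. Its NTC libraries also lay below Par, at −2.73, so part of the value depends on the control taken. CBX6, another reader, fell by 0.56 on the log2 scale to 58.6 to 95.3 CPM, against 90.7 to 133 CPM in the controls. The CBX6 value was −0.90 in KO5.2 and −0.22 in KO1.8. PHC2, which polymerises PRC1, rose by 0.50 ± 0.04 to 270.0 to 396 CPM, against 183 to 284 CPM, with NTC below Par, at −0.54. In the variant PRC1 list, 5 genes were higher and 4 lower of 17 tested in 501mel, a share near the 51.3% of all genes, and voom called 0, with 1 at an unadjusted p under 0.05. Among the called were RYBP at −0.39 ± 0.06, WDR5 at −0.23 ± 0.04 and PCGF5 at 0.23 ± 0.05. In SKmel147, KDM2B, which recruits PRC1 to unmethylated CG islands, was at −0.42 ± 0.08, PCGF1, the PCGF partner of KDM2B, at 0.31 ± 0.09 and FBRSL1 at −0.64 ± 0.14, and these 3 were the called genes of 18 tested, beside 17.7% of all genes. Voom called 0 of the 18, with 3 at an unadjusted p under 0.05, and the call of PCGF1 was lost without any 1 library other than the first Par library. Between NT and Par, KDM2B was called at −0.70, and FBRSL1, at −0.66, was not.

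PR-DUB removes the PRC1 mark from H2A. Of its genes, KDM1B and MBD5 rose in the mean of the KO lines of both cell lines. Over all genes tested in both, 7.32% were called with equal sign. In each single SKmel147 KO line, 1 PR-DUB gene was called higher. KDM1B, a histone demethylase that binds this complex, was at 103 to 136 CPM in the 501mel KO libraries, against 56.5 to 76.6 CPM in the controls (0.85 ± 0.04), and at 28.9 to 46.8 CPM in the SKmel147 KO libraries, against 25.9 to 31.2 CPM in the controls (0.42 ± 0.08). MBD5 rose by 0.37 ± 0.09 in SKmel147 and by 0.26 in 501mel. FOXK2 was at −0.25 ± 0.07 in SKmel147, and MBD6 at −0.54 ± 0.05 and FOXK1 at −0.28 ± 0.05 in 501mel. In all, 2 of 11 PR-DUB genes were higher and 1 lower in SKmel147, and 5 of 10 were higher and 2 lower in 501mel, beside 17.7% and 51.3% of all genes called. With voom, 0 of 11 were called in SKmel147 (3 at an unadjusted p under 0.05) and 2 of 10 in 501mel. In SKmel147 no PR-DUB gene was lower without any 1 of 8 libraries, those other than the first NT and the first Par library, and 1 rather than 2 was higher without the second of KO1.4, the first of KO3.20 or the first of NT. Of the demethylases of H3K27 and their COMPASS partners, 1 of 7 was higher (NCOA6, 0.34 ± 0.06) and 5 were lower in 501mel, among them PAXIP1 at −0.34 ± 0.04 and KMT2C at −0.33 ± 0.04, and 0 of 7 were called with voom, with 3 at an unadjusted p under 0.05. Without 1 library, namely the second of KO1.8 or KO5.2, either of NTC or the first of Par, 3 rather than 5 were lower. In SKmel147 edgeR called 0 of the 7, with 1 at an unadjusted p under 0.05, and DESeq2 called 0, and KDM6B, KMT2D and KMT2C were at 0.40 ± 0.15, −0.14 ± 0.08 and 0.12 ± 0.08.

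Among 30 textbook Polycomb target genes, 9 of 13 tested were lower in the mean of the 501mel KO lines (26.5% of all genes), and 4 of 21 in that of the SKmel147 KO lines (9.6% of all genes). In 501mel, 5 were lower with DESeq2, 6 against Par alone, 4 without KO5.2, 5 without its first library and 1 with voom. For the mean of the KO lines edgeR called 0 higher in either cell line, at an adjusted or an unadjusted p under 0.05, and DESeq2 called 0 higher in 501mel and 1 in SKmel147. Single KO lines did have genes called higher, which are named here after their values were seen. These were the signalling factor BMP2 in KO1.5, FOXF1 and GATA4 in KO1.4 and GATA4 in KO3.20, and in 501mel CDKN2B in KO1.8 and GATA4 and HOXA13 in KO5.2. GATA4, a heart and endoderm factor, had 35 and 49 counts in the KO3.20 libraries and 5 in each KO1.4 library, against 0 or 1 in the SKmel147 controls, and rose by 0.27 ± 0.07 on the log2 scale in KO5.2. In 501mel the list's median was −0.33, beside −0.01 over all genes, and the summed level was 123 to 165 CPM in the KO libraries, against 176 to 185 CPM in the controls. CDKN2A, the cell cycle inhibitor locus repressed by BMI1, was at 38.5 to 76.2 CPM in the KO libraries, against 77.4 to 91.1 CPM in the controls (−0.61 ± 0.05). OLIG2, a glial lineage factor, was at 2.85 to 4.15 CPM in the KO libraries, against 6.98 to 9.47 CPM in the controls (−1.21 ± 0.10), and the endodermal factor GATA6 was at −0.42 ± 0.10. In SKmel147 PAX6 (−0.49 ± 0.08), FOXC1 (−0.41 ± 0.11), HOXD13 (−0.48 ± 0.14) and HOXC13 (−0.37) fell, with a list median of −0.14. That count rested on the control taken, with 8 lower and 0 higher against Par alone and 0 lower and 2 higher against NT alone, and it was 0 with voom, where 3 passed at an unadjusted p under 0.05. Without any 1 library other than the first Par library it was 1 to 2. There NT differed from Par in the same list by a median of −0.61, with 7 genes lower and 0 higher (edgeR, with 1 higher at an unadjusted p under 0.05 and 0 called higher by DESeq2), and the second Par library summed to 304 CPM, against 154 to 207 CPM in the other controls. Without that library the list's median in SKmel147 was −0.08, with 2 genes lower.

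The cell cycle genes, which follow the share of dividing cells, rose in 7 of 12 cases in 501mel (24.7% of all genes) and in 0 of 12 in SKmel147, where 1 fell (edgeR). With voom and the line as a block, 3 of 12 rose in 501mel. At an unadjusted p under 0.05 and with DESeq2 the count of rises in SKmel147 was 0 as well. RRM2, PCNA and E2F1 rose by 0.66 ± 0.04, 0.56 ± 0.04 and 0.52 ± 0.06 in 501mel, and MCM5 changed by −0.45 ± 0.09 in SKmel147, where E2F1 at −0.33 ± 0.11 and MCM2 at −0.14 ± 0.08 did not pass. EZH2 was lower in the KO lines of both, so in 501mel its RNA and that of these genes went opposite ways. The list's median was 0.13 in 501mel and −0.09 in SKmel147. Of the melanocyte markers, TYRP1 at −0.99 ± 0.04, S100B at −0.62 ± 0.06 and DCT at 0.41 ± 0.05 changed in 501mel, mostly in KO5.2 for TYRP1 (−1.92, against −0.07 in KO1.8), and 0 of 4 tested passed in SKmel147 with edgeR or DESeq2, 1 of them at an unadjusted p under 0.05 with each. There TYRP1 was at −2.11 ± 0.79, and at −0.45 ± 0.61 without the first Par library, with MLANA at −0.44 ± 0.27 and MITF at −0.14 ± 0.09. The keratin KRT14, listed as a marker of other cells, was at 1.57 to 2.55 CPM in the SKmel147 KO libraries, against 0.559 to 0.972 CPM in the controls (1.38 ± 0.19), and CD68 was at 0.45 ± 0.35 in 501mel, not called. Their part in the values of the Polycomb genes was not tested.

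**Figure D5:**
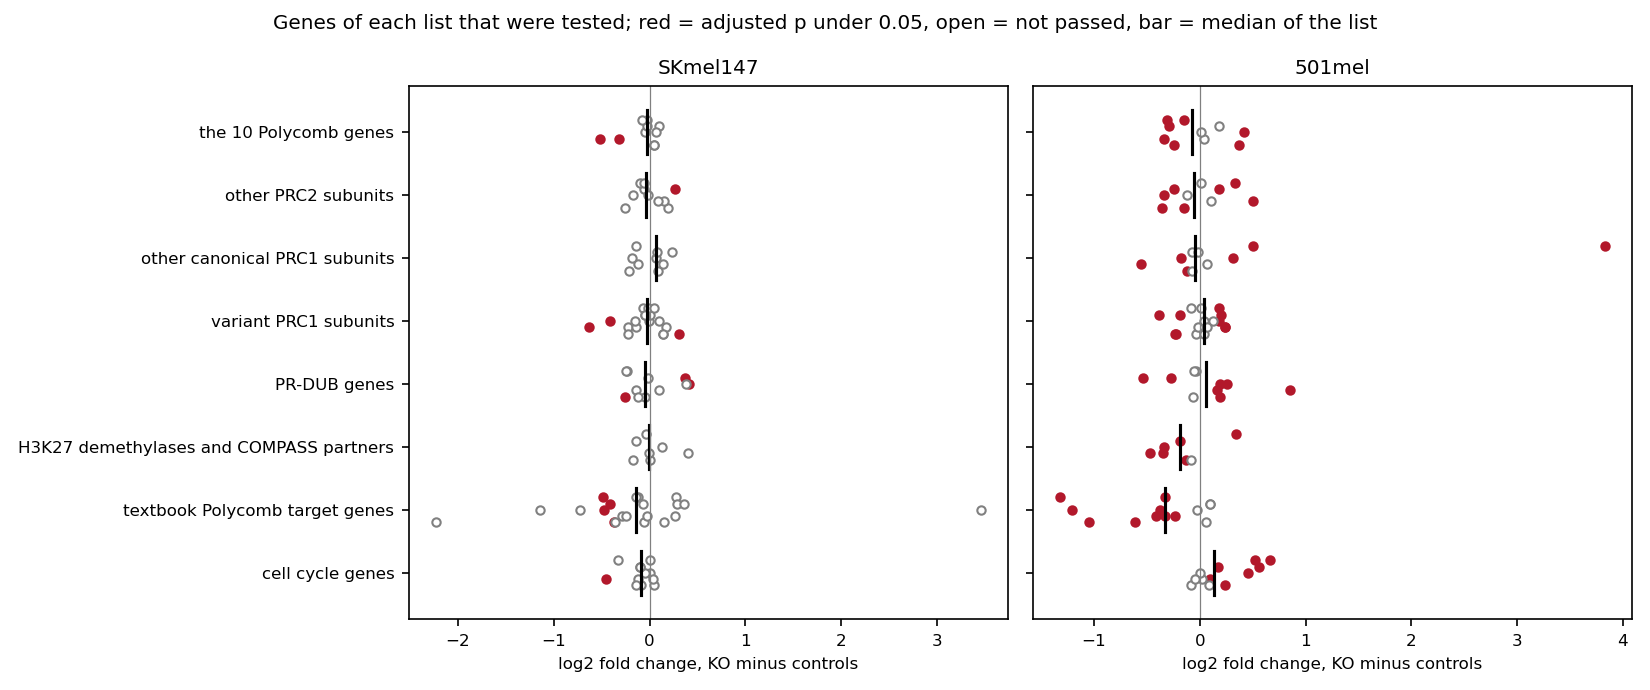
Log2 fold change of the KO lines against the controls (horizontal axis) for each tested gene of 8 lists (rows), in SKmel147 on the left and 501mel on the right, red past an adjusted p of 0.05 and open otherwise, with a bar at the median of the list. The medians of the Polycomb gene rows lie near 0, while that of the target genes lies at −0.14 in SKmel147 and −0.33 in 501mel.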

How the data were processed

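RNA of 18 libraries was measured. The authors deposited 1 table of raw counts per cell line, with gene symbols in the first column. STAR 2.6.0, featureCounts, GRCh37 and hg19 are named in the submitters' processing notes. Which annotation and strand setting were used, and what became of multiply mapped reads, is not given in the sources used here. Per the labels' protocols, libraries were made with a directional kit from polyadenylated RNA.

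The counts were fitted per cell line in R 4.3.3 with edgeR 4.0.16 (TMM, filterByExpr by line, 1 coefficient per line), and contrasts of line means were tested with the quasi-likelihood test and Benjamini-Hochberg (BH) adjustment over all genes tested, called under 0.05. Log2 fold changes have standard errors from the fit. Comparisons between cell lines came from a joint fit of all libraries. The fits were tested on simulated data. There the lines of a cell line differed only by KO, so spread between lines was not covered. Alternatives were DESeq2 1.42.0 (size factors, Wald test), no low-count filter, a replicate block, either control alone, leaving out each library or each KO line, summed lines as replicates, limma 3.58.1 voom with the line as block, and trends on GC content and length removed. GC content, exon length and gene order came from GENCODE 29, matched for 35303 symbols, 1236 of them by an older symbol, and promoters from RefSeq on GRCh38.p14, whose build differs from that of the counts. All 10 genes were named, with up to 3 genes of smallest p from each further list and cell line, the 3 genes most like EZH2 and RNF2, and ARID2. SUZ12P, COMMD3-BMI1, HOXC13 and PMEL, TYR, DCT, S100B and SOX10 of the marker list fall partly outside that rule and were named after their values were seen. The list counts under the alternatives were added after the data had been seen. A gene that the rule names is not reported here. The genes and lists were chosen with earlier results of these data known. No column was left out.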

Additional observations from a re-analysis of the deposited data

Results flagged for a closer look

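The effect of ARID2 KO on CBX2 differed between the cell lines, by a log2 difference of 0.55 ± 0.15 (SE) as 501mel minus SKmel147 (edgeR quasi-likelihood test, BH-adjusted p = 0.0141). The test was of this difference itself, as an interaction term. In 501mel the KO lines were at 0.24 and −0.15 against the controls, in KO1.8 and KO5.2, and in SKmel147 the 3 KO lines were at −0.23, −0.78 and −0.53, so 5 lines entered it. NTC was higher than Par by 0.25 in 501mel, and NT and Par of SKmel147 differed by −0.06. The difference was at 0.35 without KO1.8 (edgeR, adjusted p = 0.188), at 0.39 against the transduced controls alone (adjusted p = 0.170) and at 0.53 with the line as the replicate (adjusted p = 0.549). In 40 groups of 4 or 6 libraries, each the KO or the control libraries of a cell line for a single Polycomb gene, 0 held a library far from the others. With so few libraries, a gap had to fill most of the group's range to count as far.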

How the results depend on the processing

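Of the re-computed values of single Polycomb genes, 922 kept their direction and their side of the threshold, 56 lost a call, 19 gained one and 93 changed sign. Of the re-computed counts of called Polycomb genes, 215 stayed within 1.5 times and 37 did not. The cause was not tested except where fewer samples entered. With the line as the replicate and with voom, 0 of the 10 genes were called for SKmel147 KO, 501mel KO and their difference, where edgeR called 2, 7 and 1. The genes called over all were then 13, 0 and 3 with the line as the replicate and 597, 942 and 419 with voom, against 3245, 8325 and 4156. For SKmel147 KO, 1 gene was called against Par alone, 1 against the transduced control alone (2076 over all) and 0 without KO1.5. For KO3.20, where edgeR called 0, DESeq2 called 1, 1 was called without the count filter or against the transduced control alone, and 2 after GC and length correction, with or without the replicate block. For NTC against Par, the correction left 1 of 2, with or without the block. For the difference between the cell lines, 3 were called after the correction, with or without the block, 3 against Par alone, 2 without KO3.20 and 0 against the transduced controls alone. The correction raised the calls over all genes to 5322 for SKmel147 KO and to 3022 for NT against Par, beside 1702.

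Deviations of same-numbered libraries correlated at −0.267 to 0.324 in SKmel147, with a median of −0.115, and at −0.025 to 0.138 in 501mel, with a median of 0.068. Whether the numbers pair the libraries was not settled by these values. With the replicate block as a term, 2 genes were called for SKmel147 KO, 7 for 501mel KO and 1 for the difference, as without it. For KO5.2, 7 were called with the block and 6 without. Over all genes the block changed the calls from 3245 to 3083 for SKmel147 KO and from 8325 to 9045 for 501mel KO. For NTC against Par they changed from 2547 to 3560.

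Leaving out 1 library gave 1 to 2 calls for SKmel147 KO, 1 to 2 for KO1.5 (1 without either library of that line), 0 to 1 for KO3.20 (1 without the first NT or the first Par library), 0 to 2 for NT against Par, 2 to 6 for KO5.2 (2 without its first library), 0 to 2 for NTC against Par (0 without the first NTC library) and 1 to 3 for the difference (3 without the first SKmel147 NT library). In SKmel147 KO it gave log2 values of −0.027 to 0.11 for EZH1, −0.11 to 0.074 for EED, −0.17 to 0.030 for SUZ12, −0.053 to 0.17 for BMI1, −0.019 to 0.17 for RING1, −0.089 to 0.052 for RNF2, −0.26 to 0.25 for CBX7 and −0.024 to 0.25 for CBX8. RING1 in 501mel KO ran from −0.0035 to 0.029. The differences ran from −0.058 to 0.019 for EZH2, −0.19 to 0.00044 for SUZ12, −0.18 to 0.030 for RING1 and −0.072 to 0.20 for CBX8, and 501mel against SKmel147 controls from −0.046 to 0.12 for EED and −0.11 to 0.14 for CBX8.

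Signs that turned were mostly of values near 0. In SKmel147 KO, Par alone gave EED 0.19, SUZ12 0.073 and RNF2 0.32, and the transduced control alone gave EZH1 −0.010 and CBX7 0.29. CBX7 was at 0.059 with voom and 0.0041 with the correction and replicate block. Without KO1.4, RING1 was at −0.0061 and CBX7 at 0.019, without KO1.5 BMI1 was at −0.0028 and CBX7 at 0.13, and without KO3.20 EED was at 0.042 and RNF2 at 0.10. In 501mel KO, RING1 was at −0.012 against Par alone and −0.011 without KO5.2, CBX2 at −0.082 against the transduced control alone, and without KO1.8 BMI1 was at 0.019 and CBX2 at −0.16. The difference of EZH2 was 0.026 with the correction (0.026 with the replicate block), 0.0016 without KO1.4 and 0.060 without KO3.20. Against the transduced controls the differences of EZH2, EED, SUZ12 and RNF2 were 0.048, 0.0067, 0.18 and 0.12. The difference of RING1 was 0.0072 without KO1.4 and that of CBX8 −0.0022 without KO1.8. Between the controls, EED and SUZ12 were at 0.61 and 0.41 with the correction (0.61 and 0.40 with the replicate block), all called, and at 0.30 and 0.10 against Par alone, and CBX8 at 0.012 against Par alone. EED and CBX8 were at 0.0075 and 0.043 with the line as the replicate, 0.0011 and 0.044 with voom, 0.0084 and 0.0038 without KO1.4 and 0.0095 and 0.0053 without KO1.5.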
